A study of Rattus norvegicus with 6 samples.

Results

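The Nuclear factor I family consists of the transcription factors Nfia, Nfib, Nfic and Nfix, read here in rat pituitaries kept in organ culture with or without GnRH, the hypothalamic peptide that drives the gonadotropin-producing cells. The members were all probe sets that the array annotation pairs with 1 of these 4 symbols alone. This gave 10 of the 31042 probe sets, namely 3 for Nfia, 3 for Nfib, 2 for Nfic and 2 for Nfix. The family was selected on measured values, since it was chosen with the log2 difference between GnRH and control arrays already known, so its differences are a description and support nothing by themselves. The groups were 3 untreated control samples and 3 samples given 10 nM GnRH, with 1 array per sample. For strain, sex, age, pooling of glands and length of treatment, the sources used here give nothing. No label says that the samples came from separate animals or cultures, so errors and p-values cover only the variation among these 6 samples, which could be technical. Several pituitary hormones were bright on the arrays, with log2 intensities of 14.09 to 14.25 for the growth hormone gene Gh1, 13.83 to 14.21 for prolactin (Prl), 12.03 to 12.71 for Lhb and 12.84 to 13.27 for Cga. Others were less bright, with 9.71 to 11.02 for Tshb, 8.86 to 10.19 for Fshb and 6.09 to 8.47 for Pomc.

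Nuclear factor I proteins bind DNA as dimers, of 2 like or unlike members, at a palindrome whose arms read TTGGC and GCCAA. The N-terminal DNA-binding and dimerisation domain is closely alike in all members, whereas the C-terminal activation or repression domain differs and is spliced into several forms. Nfia, Nfib and Nfix are best known from glia, neural progenitors, lung and muscle, and Nfic from tooth root formation. In the pituitary, the growth hormone promoter is a classical target of these proteins.

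Control 3 stood apart from the other controls. On the first principal component it lay at 11.7, among the GnRH arrays at 7.82 to 18.1, while controls 1 and 2 lay at -29.6 and -24.2. Xist, the RNA of the silenced X chromosome, had a mean log2 value over its probe sets of 4.12 in control 1, 3.98 in control 2, 7.34 in control 3 and 7.14 to 7.16 with GnRH. Controls 1 and 2 were thus low in Xist, and control 3 and the GnRH arrays high. If this reflects the sex of the glands, sex is partly confounded with GnRH. Its part in the differences below was not tested. All 10 member probe sets were lower in control 3 than in the mean of controls 1 and 2, a pattern of 58.3% of all probe sets. Each member probe set is therefore also given against controls 1 and 2 and against control 3.

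Nfic was higher with GnRH on its brighter probe set and overlapped between groups on the other. Nfix was higher in 2 of 3 GnRH arrays on one probe set and slightly lower on the other. Nfib was lower by small amounts on all 3 probe sets, and Nfia differed by less than its SE on all 3. By limma with Benjamini-Hochberg adjustment over all probe sets, 1 of the 10 passed an adjusted p of 0.05, beside 0.464% of all probe sets. The same probe set was the only member whose groups did not overlap, beside 16.7% of all probe sets. Nothing is read from these counts, since this contrast chose the family. The median difference over the 10 was 0.011, and over all probe sets -0.025, on the log2 scale.

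**Figure D1:**
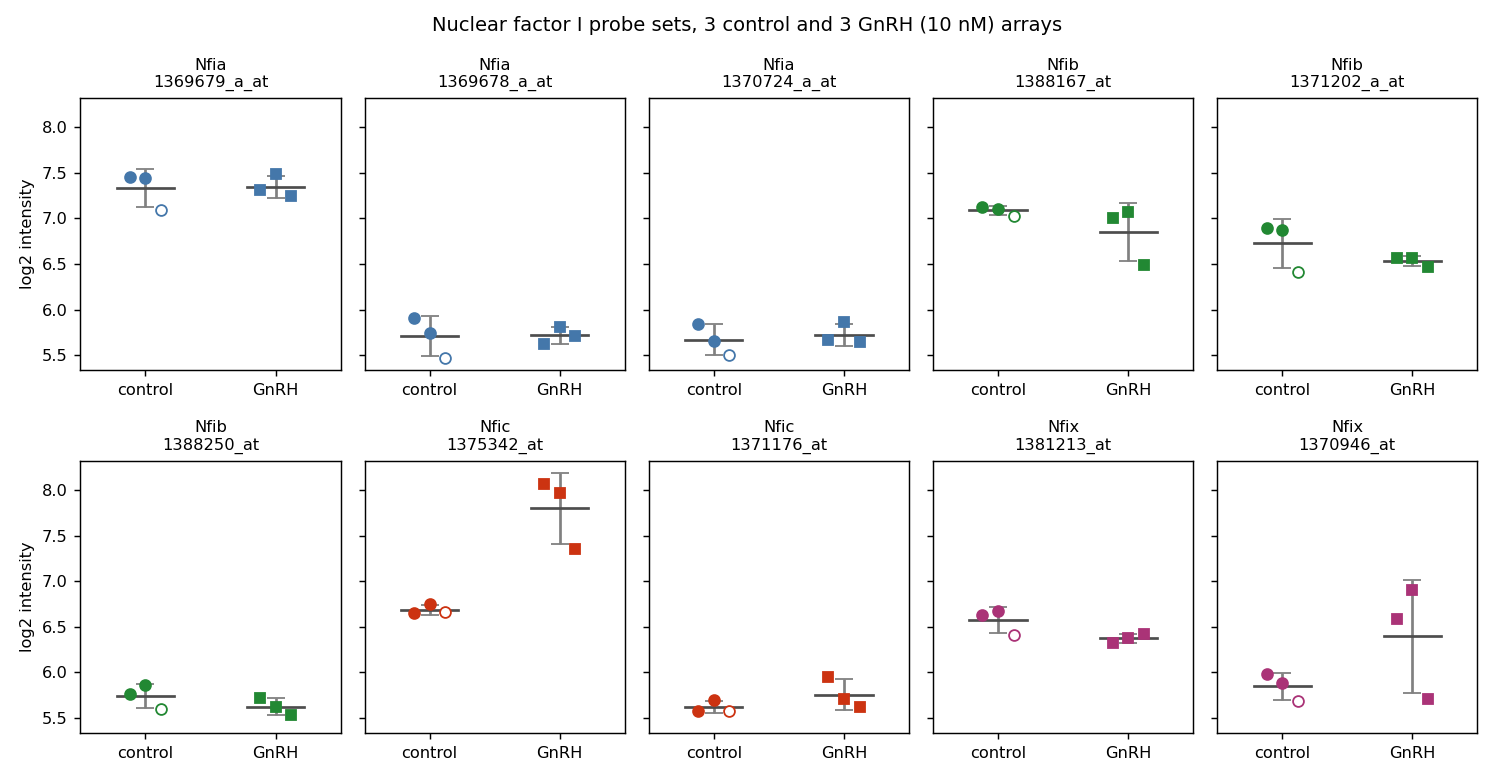
Log2 intensity of the 10 Nuclear factor I probe sets on each array, with circles for the 3 controls (open circle, control 3) and squares for the 3 GnRH arrays, and the mean ± SD of each group. Nfic on 1375342_at is the only probe set whose 3 GnRH arrays (7.35 to 8.07) all lie above the 3 controls (6.65 to 6.75).

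Because Nfic carried the largest difference, the window around an annotated start of Nfic is shown, from 250 bases before to 50 bases after it, as RefSeq gives it on GRCr8 at chr7:8932919-8933218 on the plus strand. The capitals mark the single match to TGACTCA, the motif that AP-1 (Fos and Jun dimers) binds and that was searched only after the letters had been seen.

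Nfic: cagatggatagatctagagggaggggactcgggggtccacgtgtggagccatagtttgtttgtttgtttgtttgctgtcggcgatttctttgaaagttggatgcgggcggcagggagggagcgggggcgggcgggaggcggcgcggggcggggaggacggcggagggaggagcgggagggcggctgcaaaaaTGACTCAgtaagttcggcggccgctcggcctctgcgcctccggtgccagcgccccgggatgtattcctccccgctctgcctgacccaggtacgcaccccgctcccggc

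On both strands together, TGACTCA was found in 4.53% of 27457 such windows, 1 window per gene symbol, and in 1 of the 4 family windows. The full palindrome, TTGGC and GCCAA parted by any 5 bases, was in 12 of the 27457 windows and in none of the family's. The 5-base arm TTGGC was in 45.8% of all windows and also in 0 of the family's 4. The GC box GGGCGG, the letters bound by Sp1, was in all 4 windows, beside 34.9% of the 27457 windows and 57.5% of the 11734 windows of measured genes. The Nfic window held 5 of them, and those of the other members 1 each. Base composition differed between the windows, with 51.0% G and C for Nfib, 66.7% for Nfic, 68.0% for Nfia and 86.0% for Nfix. Such matches describe letters in a window and not sites in use, and RefSeq lists further transcripts of each gene.

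On probe set 1375342_at, Nfic had log2 values of 6.65, 6.75 and 6.66 in the controls and 8.07, 7.97 and 7.35 with GnRH. In linear intensity this was 100.2, 107.4 and 101.0 against 268.4, 250.7 and 163.2. The controls lay close together, and GnRH 3 lay well below the other two GnRH arrays but 0.60 above the highest control. The difference was 1.11 ± 0.16 (limma SE, n = 3 per group) on the log2 scale, a ratio of 2.16. It was 1.10 against controls 1 and 2 and 1.14 against control 3, so that the control that stood apart did not change its size. The adjusted p passed 0.05 with all 6 arrays and in 10 of 15 alternatives. It did not pass without control 1, control 2, GnRH 1 or GnRH 2, nor with a pseudocount of 16, where the difference ran from 0.98 to 1.14.

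The other Nfic probe set, 1371176_at, had 5.58, 5.70 and 5.58 in the controls and 5.94, 5.71 and 5.62 with GnRH. GnRH 1 was the highest of the arrays, GnRH 2 lay just above control 2, and GnRH 3 lay among the controls. The difference was 0.14 ± 0.10, or 0.12 against controls 1 and 2 and 0.18 against control 3, and did not pass the test in any of the 15 alternatives, in which it ran from 0.044 to 0.21. The difference between the probe sets of this gene was thus 0.97. Across the 6 arrays their values had a Pearson correlation of 0.76, as a description, and the arrays took the order GnRH 1, GnRH 2, GnRH 3 from high to low on both. With the mean of both probe sets, the Nfic difference was 0.62 and no longer passed the test (limma adjusted p = 0.0745). The sources used here do not say which part of the transcript each probe set reads.

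Nfix, known from muscle and brain development, also differed between its probe sets, and there in sign. On 1370946_at it had 5.98, 5.88 and 5.68 in the controls and 6.59, 6.90 and 5.71 with GnRH. GnRH 1 and GnRH 2 were above every control, while GnRH 3 lay between control 3 and control 2. The difference was 0.55 ± 0.24, with 0.47 against controls 1 and 2 and 0.71 against control 3. It moved with single arrays, to 0.30 without GnRH 2 and to 0.90 without GnRH 3, and passed an adjusted p of 0.05 only in the latter.

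On 1381213_at, the brighter Nfix probe set, the values were 6.63, 6.67 and 6.41 in the controls and 6.32, 6.37 and 6.42 with GnRH. Control 3 lay beside the GnRH arrays, which were close to each other, and controls 1 and 2 lay above them. The difference was -0.20 ± 0.10, or -0.28 against controls 1 and 2 and -0.038 against control 3. Of the alternatives it passed the threshold only with array weights, where control 3 weighed least (0.298). The values of the Nfix probe sets had a Pearson correlation of -0.47 across the 6 arrays. With their mean, Nfix was higher by 0.18 with GnRH, so that its sign depended on how the probe sets were combined.

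**Figure D2:**
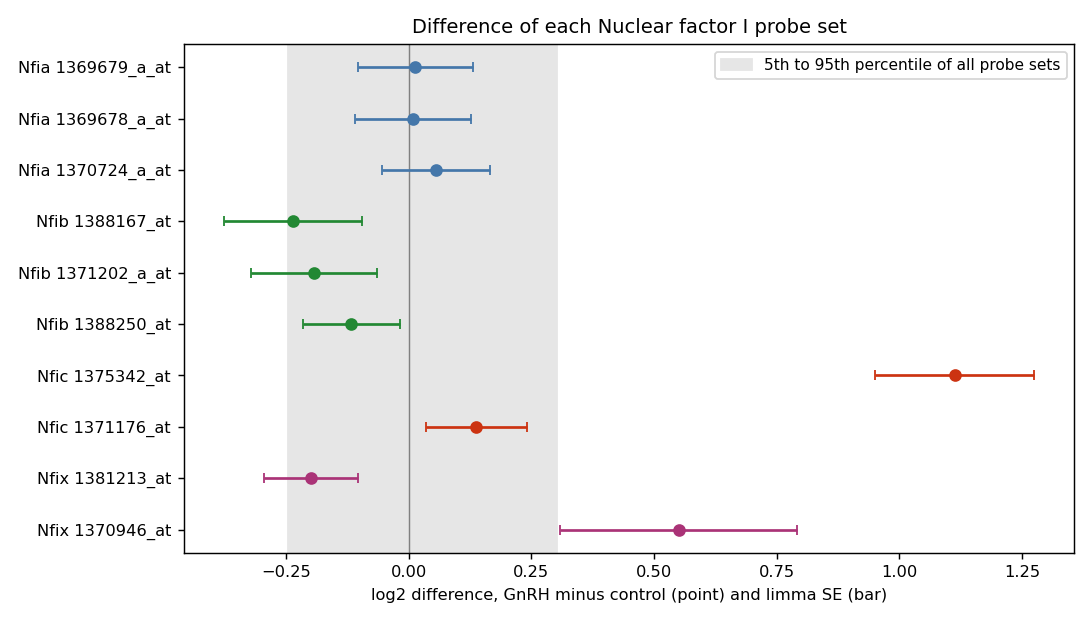
Log2 difference, GnRH minus control, of each member probe set (point) with its limma SE (bar), with the 5th to 95th percentile of all 31042 probe sets (-0.25 to 0.30) shaded. Nfic 1375342_at at 1.11 and Nfix 1370946_at at 0.55 lie to the right of the shaded range, while the second probe set of each gene lies inside it.

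Nfib, known for lung maturation and for stem cell quiescence in the hair follicle, was lower with GnRH on each of its 3 probe sets. On the brightest, 1388167_at, it had 7.13, 7.11 and 7.03 in the controls and 7.00, 7.07 and 6.49 with GnRH. GnRH 3 alone was low, and the other two GnRH arrays lay within or just below the range of the controls. The difference was -0.24 ± 0.14, or -0.26 against controls 1 and 2 and -0.18 against control 3, and it shrank to -0.053 without GnRH 3.

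On 1371202_a_at, Nfib had 6.89, 6.87 and 6.41 in the controls and 6.57, 6.57 and 6.46 with GnRH. Here control 3 was the lowest of all 6 arrays, and the GnRH arrays lay between it and controls 1 and 2. The difference was -0.19 ± 0.13 in all, -0.35 against controls 1 and 2 and 0.12 against control 3. It passed an adjusted p of 0.05 only without control 3, when the controls left, 1 and 2, were both low in Xist. The third probe set, 1388250_at, had 5.77, 5.86 and 5.60 against 5.72, 5.62 and 5.53, a difference of -0.12 ± 0.10, with -0.19 against controls 1 and 2 and 0.026 against control 3. The shared sign of the Nfib probe sets thus held for 1 of 3 when control 3 was the comparison. Their values had Pearson correlations of 0.54 to 0.88 across the arrays, the highest between 1371202_a_at and 1388250_at.

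Nfia, which promotes the switch of neural progenitors to glia, showed the closest agreement between probe sets. On the brightest, 1369679_a_at, it had 7.46, 7.45 and 7.10 in the controls and 7.31, 7.49 and 7.25 with GnRH. The groups overlapped fully, control 3 was the lowest array and GnRH 2 the highest. The differences were 0.014 ± 0.12 on this probe set, 0.0092 ± 0.12 on 1369678_a_at and 0.055 ± 0.11 on 1370724_a_at. Against controls 1 and 2 they were -0.10, -0.11 and -0.028, and against control 3 they were 0.25, 0.25 and 0.22. Their sign thus followed the choice of control arrays, and none passed the threshold in any of the 15 alternatives. Across the 6 arrays the 3 probe sets had Pearson correlations of 0.88 to 0.91. All 3, and 1371202_a_at of Nfib, carry the manufacturer's suffix for probe sets that can read several transcripts of a gene, so these values may sum over splice forms.

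**Figure D3:**
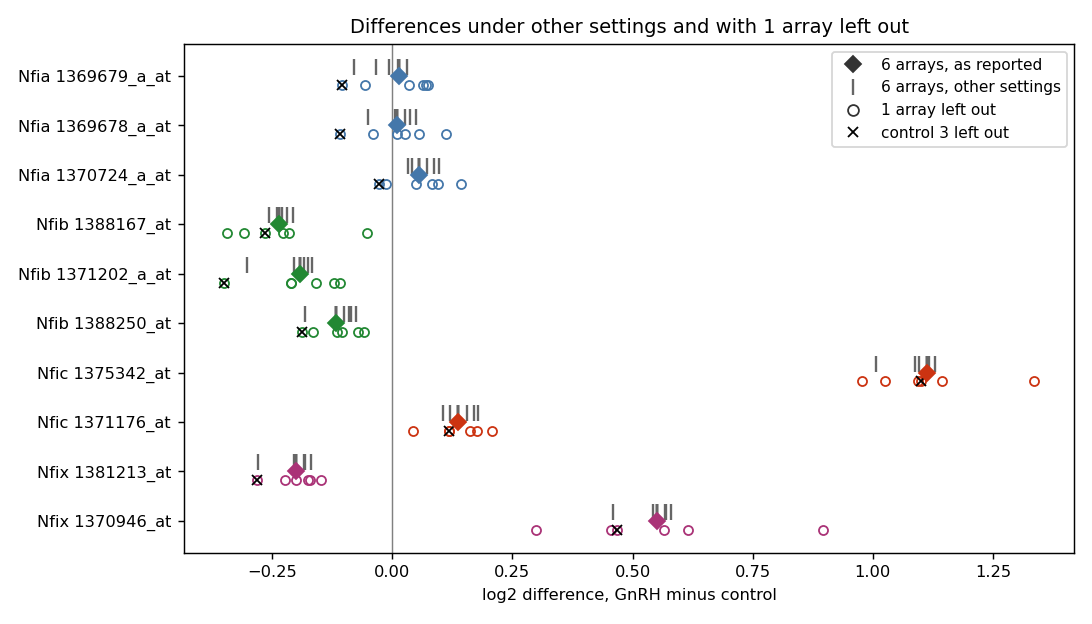
Log2 difference, GnRH minus control, of each member probe set as reported (diamonds), under other settings with all 6 arrays (ticks) and with 1 array left out (circles; crosses, control 3 left out). Nfic 1375342_at stays between 0.98 and 1.34, Nfix 1370946_at runs from 0.30 to 0.90, and the Nfia probe sets lie on both sides of 0.

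Across the family the third GnRH array was often the low one. It was the lowest of the GnRH arrays on 8 of 10 member probe sets, a pattern of 35.0% of all probe sets. Nfic 1375342_at and Nfix 1370946_at, the 2 probe sets with the largest differences, had a Pearson correlation of 0.83 over the 6 arrays and 0.90 after the group means were removed. Nfix 1370946_at and Nfib 1388167_at had 0.35 and, without the group means, 0.99, the highest such value of any pair of member probe sets. In each of these 3 probe sets the array farthest from its group was GnRH 3.

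Of 10 glial markers of the posterior lobe, the neural part of the gland, 3 are given by array because they were low in GnRH 3, a choice made after their values were seen. Gfap, the intermediate filament of glia and a known target of Nuclear factor I proteins, had 7.92, 8.97 and 8.94 in the controls and 7.69, 6.47 and 5.76 with GnRH. Scn7a, a sodium-sensing channel of glia, had 8.19, 8.20 and 8.17 against 7.84, 8.00 and 5.86. Col25a1, a transmembrane collagen, had 4.11, 4.41 and 4.86 against 3.71, 3.50 and 2.86. Each of these genes was below every control in all 3 GnRH arrays, a pattern of 9.62% of all probe sets. That GnRH 3 was the lowest follows from their choice. For Scn7a GnRH 3 lay far below the other 2 GnRH arrays. The other 7 markers differed by -0.20 to 0.20 between groups, with Slc1a3, Vegfa and Aqp4 above 0 and Adm, Fgf10, Nkx2-1 and Rax below 0 and lowest in GnRH 3. By limma 0 of the 10 passed an adjusted p of 0.05 and 2 had an unadjusted p under 0.05, beside 13.2% of all named genes. Their summed intensity ran from 1566 to 2022 in the controls and from 1198 to 1613 with GnRH. The absence of a marker could not be judged, because the values carry no detection calls. In these whole-organ samples fewer cells of a type and less RNA per cell cannot be told apart, and the part of these markers in the Nfib, Nfic and Nfix values was not tested.

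**Figure D4:**
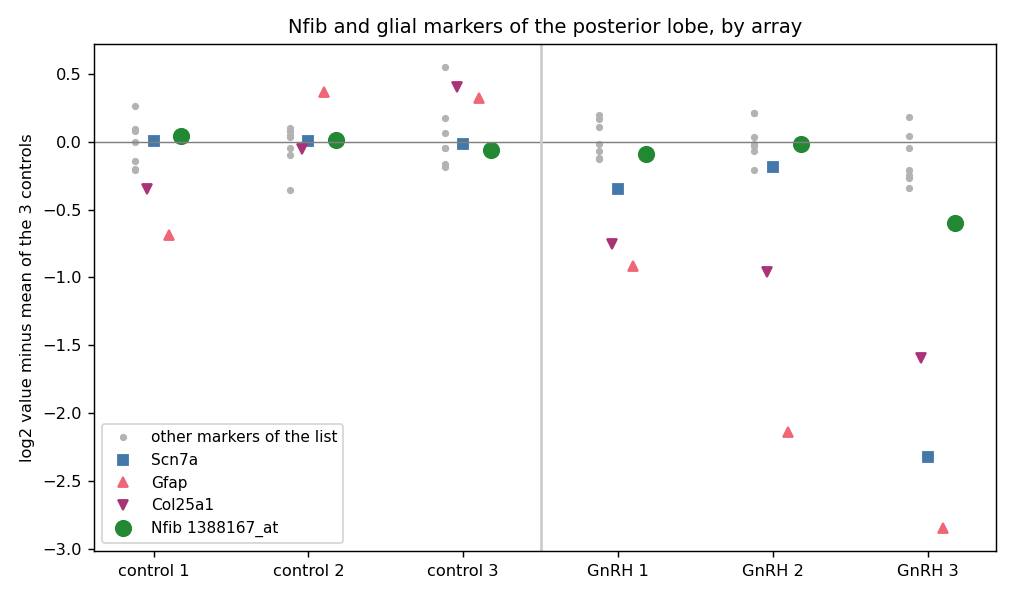
Log2 value minus the mean of the 3 controls on each array, for Nfib on 1388167_at (green) and the 10 glial markers of the posterior lobe. Gfap, Scn7a and Col25a1, singled out after their values were seen, and Nfib are all lowest in GnRH 3, and the group means of the other 7 markers (grey) differ by -0.20 to 0.20.

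Among markers of the hormone cells themselves, 2 of 13 measured rose with GnRH and 0 fell by limma, beside 0.556% and 0.0492% of all named genes. Gnrhr, the GnRH receptor, had 7.85, 7.78 and 8.16 in the controls and 8.78, 9.45 and 8.94 with GnRH, a rise of 1.12 ± 0.17 (limma adjusted p = 0.0215). Nr5a1, the gonadotrope factor SF-1, had 6.50, 6.29 and 6.47 against 6.90, 6.89 and 7.07, a rise of 0.54 ± 0.096 (limma adjusted p = 0.0471). The groups did not overlap for either gene, and among the GnRH arrays GnRH 3 was not the lowest in either, unlike for Nfic. Gnrhr passed in 10 of 15 alternatives and Nr5a1 in 6. Gnrhr did not pass without control 1, control 2, GnRH 2 or GnRH 3, nor with a pseudocount of 16. Nr5a1 passed without control 3 but not without any other single array, nor with median centring, quantile normalization, cyclic loess or the pseudocount, nor with the mean of its probe sets. These alternatives were run for both genes after their values were seen. In this list 5 of 13 had an unadjusted p under 0.05, beside 13.2% of all named genes. Its median difference was 0.18, with 8 of 13 above 0. The gonadotropin genes Lhb (0.34) and Cga (0.18) were above 0 with overlapping groups, as was Ghrhr (0.018). Pitx1 (0.80), Pou1f1 (0.58) and Prl (0.24) were above 0 without overlap, a pattern of 7.06% of all probe sets. By limma they did not pass the threshold. Fshb (-0.30), Tshb (-0.48), Pomc (-0.82), Tbx19 (-0.22) and Gh1 (-0.080) were below 0. For Pomc GnRH 3 was far the lowest array, with 8.47, 7.96 and 7.47 against 7.68, 7.67 and 6.09. The summed intensity of the list ran from 50064 to 55161 in the controls and from 53709 to 56609 with GnRH. The part of these cells in the Nfic values was not tested.

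The other marker lists were read in the same way. Fibroblast and pericyte markers had a summed intensity of 2108 to 2375 in the controls and 2053 to 2176 with GnRH, and those of folliculostellate and stem-like cells 3094 to 3680 and 2516 to 2917. By limma 0 of 14 and 0 of 11 measured markers passed an adjusted p of 0.05, while 6 and 4 had an unadjusted p under 0.05, beside 13.2% of all named genes. Endothelial markers summed to 1239 to 1355 and 1357 to 1517, and markers of macrophages and leukocytes to 1551 to 1752 and 1563 to 1833. In these lists 0 of 11 and 0 of 12 passed by limma, with 1 unadjusted p under 0.05 in each. Their part in the family's values was not tested.

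The genes with the array pattern most like each member were sought among 14216 others, with 1 probe set per gene, by Pearson correlation of log2 values over the 6 arrays. For Nfic on 1375342_at these were Grm6, a metabotropic glutamate receptor (0.994), Bahd1, a heterochromatin protein (0.984), and Ppp1r12c, a subunit of myosin phosphatase (0.980). All 3 were higher in each GnRH array than in every control, a pattern of 7.06% of all probe sets. Their differences of 0.16, 0.27 and 0.35 were smaller than that of Nfic and did not pass the test. For Nfib on 1388167_at they were Scn7a (0.991), C4bpb, a chain of a complement regulator (0.988), and Abca8a, a lipid transporter (0.988). Each of these was lowest in GnRH 3, with 8.17 or more for Scn7a in the controls and 5.86 there, and 6.24 to 6.52 for Abca8a in the controls and 4.96 there. For Nfix on 1381213_at they were the forkhead factor Foxa2 (0.993), the endocytic receptor Lrp2 (0.990) and the Smad anchor Zfyve9 (0.990), which like Nfix had control 3 below controls 1 and 2. For Nfia on 1369679_a_at they were LOC100910558 (0.997), Neurl2 (0.994) and Ogfrl1 (0.991). A correlation of at least 0.95 was reached by 52 genes for Nfic, 39 for Nfib, 103 for Nfix and 53 for Nfia. With 6 arrays and so many genes, such values arise in number and say nothing of shared control. The array patterns that these genes share with a member follow from their choice by correlation.

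Among partners and known targets of the family, Dmp1 alone passed the test. The lists held 71 different genes from general knowledge, of which 65 were measured. Of these 1 rose and 0 fell (limma, Benjamini-Hochberg adjusted p under 0.05) beside 0.605% of all 14217 named genes (0.556% higher and 0.0492% lower), and 19 had an unadjusted p under 0.05, beside 13.2% of all named genes. Nothing about the lists is read from a count of 1. Their median difference was -0.036, with 25 above 0 and 40 below, against a median of -0.0089 over all named genes. Without control 3, 10 of the 65 passed, and with array weights 16, in fits where 2309 and 3020 of all probe sets passed. The fit without control 3 keeps only controls 1 and 2, both low in Xist. In it GnRH and the Xist level cannot be told apart.

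The gene that rose, Dmp1, stood in the list of tooth and bone targets of Nfic. Dmp1 encodes a secreted acidic phosphoprotein of dentin and bone, and in odontoblasts Nfic is known to act on it through the transcription factor Klf4. Dmp1 had 5.21, 5.26 and 5.07 in the controls and 6.52, 6.94 and 6.52 with GnRH, a rise of 1.48 ± 0.12 (limma adjusted p = 0.00586). The GnRH arrays were all more than 1 log2 unit above the controls, and the order among them was not that of Nfic. Klf4 had 6.12, 6.26 and 6.35 against 6.84, 6.90 and 6.63, a difference of 0.55 ± 0.10 whose groups did not overlap but which just missed the threshold (limma adjusted p = 0.0534). It passed in 5 of 15 alternatives, among them the fit without control 3. The other 8 measured genes of this list did not pass, among them Cdh1 (E-cadherin, -0.37) and the dentin gene Dspp (-0.18). The list's median was -0.053. Dmp1 and Klf4 were already known from these data when the list was drawn up, so that their presence is no independent evidence of a direction.

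Among 19 measured neural and glial targets 0 passed by limma, with 5 at an unadjusted p under 0.05 (13.2% of all named genes) and a median of -0.087. Gfap, given above, had a difference of -1.97 ± 0.42 (limma adjusted p = 0.0835). Tnc, the matrix protein tenascin C, had 5.47, 5.91 and 6.20 in the controls and 6.48, 7.28 and 6.78 with GnRH, a difference of 0.99 ± 0.21 without overlap (limma adjusted p = 0.0852). Prox1, a homeobox factor, had a difference of -0.48 on its brighter probe set and 0.0022 on the other. Cdh2, N-cadherin, had -0.24 on its brightest probe set and -0.39 and 0.031 on the others. These genes went in both directions. Without control 3, a fit in which 2309 of all probe sets passed, Gfap and Tnc passed the threshold.

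Of 18 measured targets in other tissues 0 passed by limma, with 5 at an unadjusted p under 0.05 (13.2% of all named genes) and a median of -0.052. Mstn, the growth inhibitor myostatin, had a difference of 1.04 ± 0.25 (limma adjusted p = 0.120), with its highest value, 5.98, in GnRH 3. Igfbp5, a binding protein of insulin-like growth factors, had 10.56, 10.53 and 10.22 against 10.74, 10.98 and 11.00 on its brightest probe set, a difference of 0.47 ± 0.12 (limma adjusted p = 0.134). All 5 Igfbp5 probe sets were higher with GnRH, by 0.21 to 0.83, and 0 passed. Col1a2, a collagen I chain, had a difference of 0.61 and Eno3, muscle enolase, of 0.25. Gh1, the pituitary target, lay at 14.09 to 14.25 on all arrays and had a difference of -0.080 ± 0.082. Every GnRH array was below every control, a pattern of 9.62% of all probe sets.

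Of 18 measured partners and co-factors 0 passed by limma, with 6 at an unadjusted p under 0.05 (13.2% of all named genes) and a median of 0.020. Pgr, the progesterone receptor, had 4.31, 4.59 and 5.32 in the controls and 5.32, 5.52 and 5.41 with GnRH, so that control 3 lay at the level of GnRH 1, and the difference was 0.68 ± 0.21 (limma adjusted p = 0.229). On its brightest probe set, Smarca4, the chromatin remodelling ATPase, showed the same division of the controls. The values there were 8.74, 8.79 and 9.16 against 9.16, 9.33 and 9.26. Its next brightest probe set had 7.61, 7.47 and 6.43 against 7.60, 7.44 and 7.46, with control 3 the lowest array. Its dimmest had 6.73, 6.66 and 6.85 against 7.07, 7.11 and 7.14, with control 3 below every GnRH array. The cytokine-signalling factor Stat5b had a difference of 0.26 and Foxa2 of -0.28. Without control 3, a fit in which 2309 of all probe sets passed, Pgr, Smarca4 and Foxa2 passed the threshold.

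**Figure D5:**
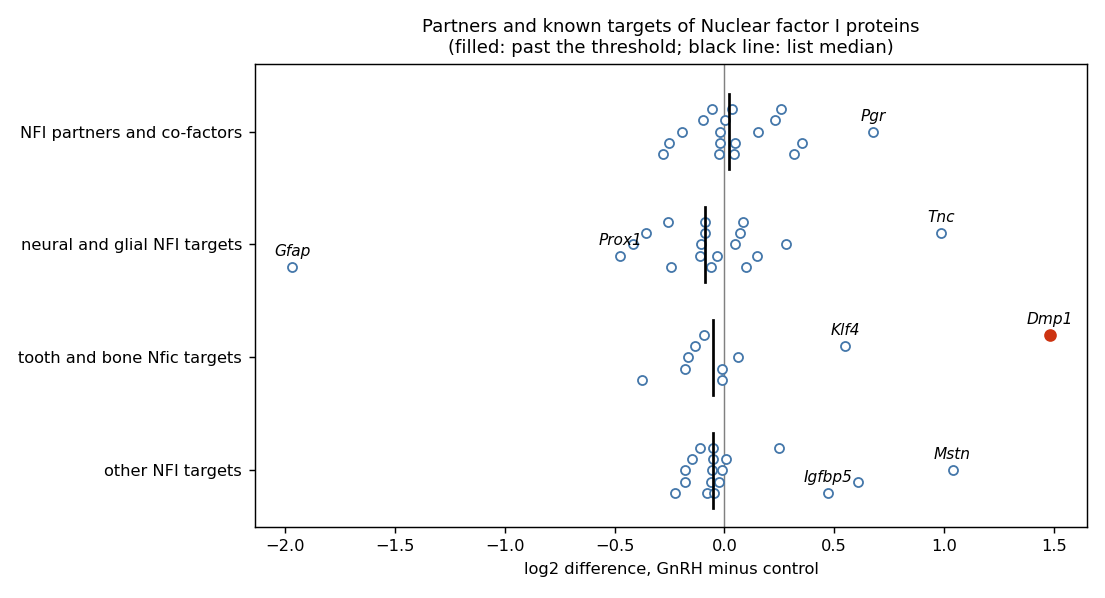
Log2 difference, GnRH minus control, of the 65 measured partners and known targets of Nuclear factor I proteins in 4 lists (open circles, not past the threshold; filled circle, past it; black lines, list medians from -0.087 to 0.020). Dmp1 at 1.48 is the only filled circle, and Gfap at -1.97 is the farthest point to the left.

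The 3 nearest protein-coding genes on each side of the members were read in the order RefSeq gives them on GRCr8, where Nfia and Nfib lie on chromosome 5, Nfic on 7 and Nfix on 19. Of 24 such neighbours 13 were measured, and by limma 0 passed an adjusted p of 0.05 and 2 had an unadjusted p under 0.05, beside 13.2% of all named genes. Beside Nfic, Celf5 (-0.024), Smim24 (-0.015), Smim44 (-0.0095) and Dohh (0.093) showed little difference, and Ncln had one of 0.33 ± 0.088. Beside Nfix, Nacc1, a transcriptional repressor, had a difference of 0.64 ± 0.13 (limma adjusted p = 0.0801), while Gadd45gip1, Lyl1 and Trmt1 had 0.15 to 0.19.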

How the data were processed

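One array per sample was read for 3 control and 3 GnRH samples, grouped by title. The deposited table gives linear array intensities, for which the submitters' processing notes name RMA; software version and filters are unstated there. RMA usually gives log2 values and equal distributions on all arrays. These values were not logged and had array medians of 64.5 to 67.0, with no detection calls. Values were turned into log2 with no pseudocount and tested with lmFit and eBayes of limma 3.58.1 in R 4.3.3 (2-sided moderated test, no covariate) over all 31042 probe sets, with Benjamini-Hochberg adjustment and a threshold of 0.05. The test was also tested on simulated data, in which the arrays varied independently and none stood apart as control 3 did here. Of the probe sets, 20826 had 1 gene symbol and were named, with symbols updated through gene identifiers of the RefSeq GRCr8 table. Promoter windows came from RefSeq on GRCr8, 1 for each of 11734 measured genes.

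The members and gene lists were chosen with earlier results of these data known. Each listed gene was read on its brightest probe set (mean over the 6 arrays). Named genes were all members, the listed partners and targets past the threshold or otherwise up to 4 with the smallest p-values, and the 3 genes most correlated with each member. A few further members of a list, among them Dspp, Gh1, Gnrhr, Nr5a1 and the glial markers, and the chromosomal neighbours were chosen after their values were seen. Sox9, Ski, Insc, Sp7 and Runx2, among other listed genes, had no probe set with their symbol alone here and were not analysed. Alternatives were other scalings, a pseudocount of 16, leaving out probe sets under the 30th percentile of the mean, other variance models, array weights, a block for the replicate number, single arrays left out, a threshold of 0.10 and gene means.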

Additional observations from a re-analysis of the deposited data

How the results depend on the processing

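The 3 arrays per group limit the precision. The 144 probe sets past the threshold became 90 with quantile normalization, 93 with cyclic loess, 74 with a pseudocount of 16, 3020 with array weights and 341 at an adjusted p of 0.10, and ran from 20 without GnRH 2 to 2309 without control 3. Members past the threshold, 1 of 10, became 0 with the pseudocount and 2 with array weights, and ran from 0 to 2 with an array left out. They were 0 without control 1, control 2, GnRH 1 or GnRH 2. Among partners and targets, 1 of 65 became 2 without dim probe sets, with an intensity trend and with robust variances, 16 with array weights and 4 at an adjusted p of 0.10, and ran from 1 to 10 with an array left out. Samples with the same replicate number had correlations of their deviations of 0.16, -0.049 and 0.16, and those with different numbers of -0.23 to 0.18. Whether samples were paired was not tested. With the replicate number as a block, 215 probe sets, 1 member and 4 partners and targets passed. The cause of these changes was not tested.

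The 7 probe sets of Nfib, Nfic and Nfix kept their sign in all 15 alternatives. Nfia turned on 1369679_a_at with quantile normalization (-0.033), cyclic loess (-0.0066) and array weights (-0.079), and on 1369678_a_at with array weights (-0.050). With an array left out, the 3 Nfia probe sets ran from -0.10 to 0.075, from -0.11 to 0.11 and from -0.028 to 0.14. Nfix turned from -0.20 on its brighter probe set to 0.18 with the mean of both. None of the named partners and targets turned in the settings run for single probe sets, which were not run for Gh1.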
